A study of Homo sapiens with 6 samples.

Results

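Messenger RNA levels of 10 genes of the neuronal cytoskeleton were examined in a neuroblastoma cell line. These were the intermediate filament subunit genes *NEFL*, *NEFM*, *NEFH*, *INA* and *PRPH*, and the microtubule protein genes *MAP2*, *MAP1B*, *MAPT*, *DCX* and *STMN2*. They were taken by gene symbol from the 60651 genes that were counted. Ribosome-depleted total RNA was sequenced from 6 libraries, 3 labelled EtOH (the solvent control) and 3 labelled Tet, for which tetracycline had been given for 5 days.

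The labels of the 6 libraries disagreed about the cells. The titles of all 6 name IMR575, a spelling of IMR-5/75, a *MYCN*-amplified neuroblastoma line in which the study's methods describe a tetracycline-inducible hairpin RNA against *MYCN*. The growth protocol instead describes single clones of SK-N-SH, a neuroblastoma line, that carry *MYCN* under a tetracycline repressor, kept in G418-BC and Blasticidin in both groups, and a further label speaks of a knockdown with the values Control and Induction. Tetracycline is therefore said to raise *MYCN* by one label and to lower it by another, and groups are called here only by EtOH and Tet. The model with inducible *MYCN* in the study's methods was made from a different line, SK-N-AS. The study's methods describe its cell culture experiments in general as independent biological replicates. No label says so for these 3 libraries a group, and p-values measure the spread between them.

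Neurofilaments are the intermediate filaments of neurons. They are built from a light (*NEFL*), a medium (*NEFM*) and a heavy (*NEFH*) chain together with α-internexin (*INA*), which appears early in neuronal development, and peripherin (*PRPH*), which is typical of peripheral neurons. Beside them run microtubules, which are stabilised by MAP2 in dendrites, by MAP1B in growing axons, by tau (*MAPT*) in mature axons and by doublecortin (*DCX*) in migrating young neurons, while stathmin-2 (*STMN2*) binds free tubulin in growth cones. Neuroblastoma arises from sympathetic precursors, and proteins of both families are widely used as signs of neuronal differentiation in such cells.

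Sequence before a RefSeq transcription start is shown for *INA* and *MAP2*, 1 gene from each family, since both belong to the 4 tested genes whose Tet libraries all lay above all EtOH libraries in scaled counts. Each window holds the 250 bases before the most upstream of the RefSeq starts available for the gene on GRCh38.p14, printed 5′ to 3′ on the strand of the gene. RefSeq may list starts further upstream that were not among them. RefSeq windows were matched for 5 of the 10 genes. Capitals mark matches to the letters TATAAA or GGGCGG on either strand, so that GGGCGG also appears as CCGCCC. The *INA* window, chr10:103276888-103277137 (plus strand), lies wholly before the gene as it was counted. That of *MAP2*, chr2:209579082-209579331 (plus strand), lies wholly inside the counted gene, before an internal start, with 17 bases in an exon.
INA: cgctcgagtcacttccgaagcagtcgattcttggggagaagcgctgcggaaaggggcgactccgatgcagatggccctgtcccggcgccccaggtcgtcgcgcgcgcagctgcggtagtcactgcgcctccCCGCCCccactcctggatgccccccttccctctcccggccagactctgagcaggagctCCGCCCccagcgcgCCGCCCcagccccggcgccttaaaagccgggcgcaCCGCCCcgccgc
MAP2: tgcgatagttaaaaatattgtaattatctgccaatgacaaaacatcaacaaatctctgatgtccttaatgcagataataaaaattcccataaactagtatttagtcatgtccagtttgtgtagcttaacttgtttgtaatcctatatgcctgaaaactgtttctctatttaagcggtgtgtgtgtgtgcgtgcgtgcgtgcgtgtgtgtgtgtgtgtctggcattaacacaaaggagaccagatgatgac

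The corresponding windows of *MAP1B* and *DCX* are described but not printed, because more than 30 of their bases lie in exons of the counted gene. Of their 250 bases 241 (*MAP1B*) and 237 (*DCX*) lie inside the gene, and 156 and 237 lie in its exons.

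The 4 windows had no common make-up. The *INA* window was 72.8% G and C and held 4 copies of GGGCGG, the letters of the GC box that Sp1-type factors bind. That of *MAP1B* was 70.0% G and C, with 3 copies of GGGCGG and 1 TATAAA, the letters of the TATA box. A single TATAAA lay in the *DCX* window, which was 42.8% G and C, and the *MAP2* window, at 37.6%, held neither motif. Over all 35116 RefSeq windows of this length, 42.6% held GGGCGG and 10.7% held TATAAA. The E-box CACGTG, the letters that MYC-family factors are best known to bind, was not among the letters of any of the 4 windows nor of that of *PRPH*, and was found in 6.34% of all windows. Likewise none of the 5 held TCAGCACC (1.32% of all windows) or GGACAGC (4.76%), letters from the left and right parts of the element bound by the neuronal repressor REST. A match is a description of letters and was not tested as a site.

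Library totals ranged from 27933378 to 40498065 assigned counts, and 3 counts in a library corresponded to 0.0741 to 0.107 per 1000000 of its total. Levels of genes are given in counts per 1000000 scaled with TMM factors (CPM). *MYCN* itself had 158, 256 and 156 CPM in the EtOH libraries and 197, 200.1 and 145 CPM in the Tet libraries, a log2 fold change (log2FC, Tet against EtOH) of -0.07 (SE 0.23, edgeR quasi-likelihood adjusted p = 0.956). The groups overlapped, and the sign turned to 0.21 (adjusted p = 0.510) without EtOH replicate 2. On the first principal component, which held 44.7% of the variance, EtOH replicate 2 (84.2) and Tet replicate 2 (47.3) lay on one side and the other 4 libraries between -55.0 and -1.81, while the second component, with 25.7%, separated the labels. EtOH replicate 2 also had the lowest share of mitochondrial counts, of a range from 4.12% to 10.01%, and each of the 10 genes that was tested is given with and without it. Of 22443 genes tested, 33 were higher and 20 lower in Tet at an adjusted p under 0.05, which is 0.236% of them.

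Per unit of transcript length the 10 genes fell into a well-expressed and a barely expressed class. Transcripts per 1000000 (TPM), the length-scaled unit used to compare levels between genes, averaged 594.6 for *MAP1B*, 204 for *INA*, 188 for *DCX*, 72.1 for *MAP2*, 53.8 for *NEFL* and 52.6 for *NEFM* over the 6 libraries. The remaining 4 genes averaged 0.496 (*NEFH*), 0.281 (*STMN2*), 0.191 (*MAPT*) and 0.184 TPM (*PRPH*). *MAP1B* ranked 65 among all genes by mean TPM, *INA* 310 and *DCX* 345.

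Some neighbours in this order could not be separated. *MAP1B* lay above *INA* in 6 of 6 libraries with ranges that did not overlap, and so did *NEFM* above *NEFH*, which marks the step between the classes. *INA* was above *DCX* in only 4 of 6 libraries, *NEFL* above *NEFM* in 3 of 6, and *NEFH*, *STMN2*, *MAPT* and *PRPH* had overlapping ranges throughout. *MAP1B* varied least, its highest library being 1.53-fold its lowest in TPM, followed by *MAP2* at 1.67-fold, whereas *DCX* spanned 4.26-fold and *MAPT* 9.79-fold.

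**Figure D1:**
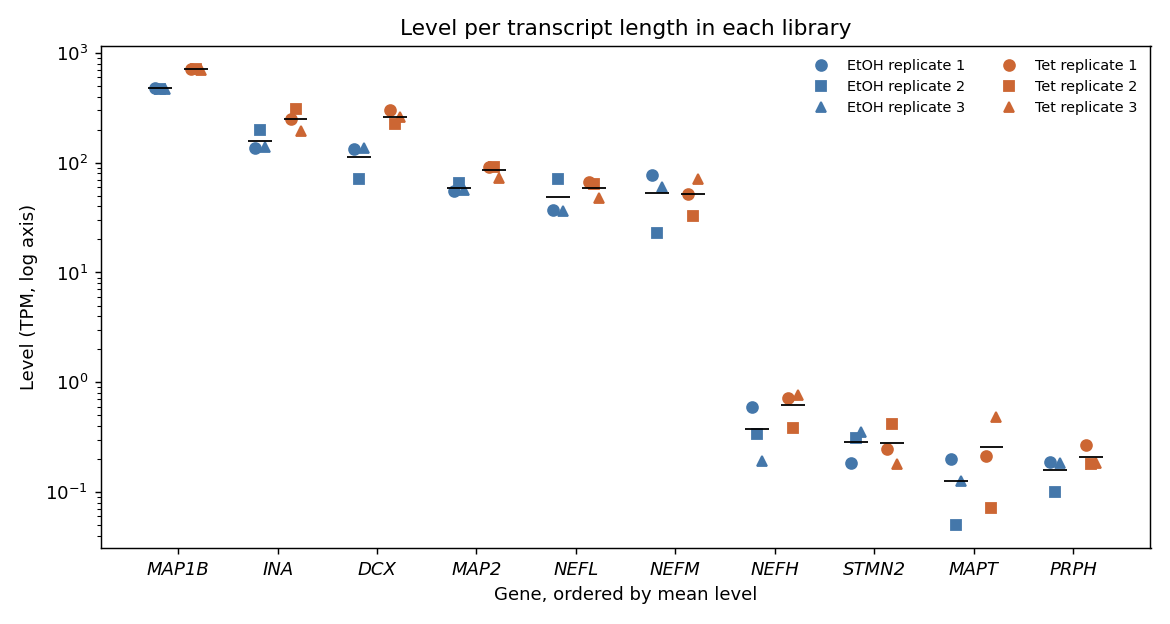
Level of each of the 10 genes (TPM, log axis) in the 3 EtOH and 3 Tet libraries, with horizontal bars at the group means. The lowest library of *NEFM*, at 22.7 TPM, lay above the highest of *NEFH*, at 0.760 TPM, and the 3 Tet symbols of *MAP1B*, *DCX* and *MAP2* stand above their 3 EtOH symbols. For *INA*, Tet replicate 3 (193 TPM) lies just below EtOH replicate 2 (198 TPM).

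*INA* was the most abundant subunit of the neuronal intermediate filaments. The gene (ENSG00000148798.11, chr10:103277138-103290346, plus strand, GRCh38) encodes α-internexin, which can form filaments on its own as well as with the neurofilament chains. It had 164, 217 and 166 CPM in the EtOH libraries and 287, 368 and 257 CPM in the Tet libraries. The lowest Tet library lay above the highest EtOH library, and in both groups replicate 2 was the highest. On the TPM scale, which is not TMM-scaled, Tet replicate 3 (193) fell just under EtOH replicate 2 (198), so this separation of *INA* was narrow. The means were 182 ± 30.3 and 304 ± 57.1 CPM (SD, n = 3 each). The log2FC was 0.74 (SE 0.19, 95% interval 0.30 to 1.17), with an unadjusted p of 0.00419 and an edgeR adjusted p of 0.194, so it did not pass the threshold. Without EtOH replicate 2 the change was 0.89 (SE 0.17) and passed it (edgeR adjusted p = 0.0299). The neighbouring gene *NT5C2* covers 13.9% of its exon bases, and reads there cannot be assigned without strand.

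*NEFL*, the light chain on which the other 2 chains assemble, resembled *INA* in having replicate 2 as its highest EtOH library. Over the 6 libraries the 2 genes had a Pearson correlation of 0.82 in log2 CPM. The gene (ENSG00000277586.4, chr8:24950955-24956721, minus strand) had 54.3, 95.7 and 52.2 CPM in the EtOH libraries and 92.6, 92.1 and 77.2 CPM in the Tet libraries. EtOH replicates 1 and 3 were the lowest of the 6 and EtOH replicate 2 the highest, so the groups overlapped. Means were 67.4 ± 24.5 and 87.3 ± 8.75 CPM (SD, n = 3 each), with a log2FC of 0.37 (SE 0.24, 95% interval -0.18 to 0.93, edgeR adjusted p = 0.661). With EtOH replicate 2 left out, the change was 0.72 (SE 0.14) and passed the threshold (edgeR adjusted p = 0.0343). One library thus decided the call for *NEFL*.

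*NEFM*, the medium chain, is transcribed from the neighbouring locus (ENSG00000104722.14, chr8:24913758-24919098, plus strand). It had 103, 27.95 and 80.3 CPM in the EtOH libraries and 67.6, 43.8 and 106 CPM in the Tet libraries. Replicate 2 was the lowest library of each group, and the groups overlapped. The means of 70.5 ± 38.6 and 72.5 ± 31.5 CPM (SD, n = 3 each) gave a log2FC of 0.04 (SE 0.46, edgeR adjusted p = 0.989). The 95% interval, from -1.01 to 1.09, takes in changes of either sign, and the estimate was -0.34 (SE 0.30, edgeR adjusted p = 0.571) without EtOH replicate 2. A share of 26.4% of its exon bases overlaps ENSG00000272163.

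*NEFH*, the heavy chain that is added late in axon maturation, was close to the detection floor (ENSG00000100285.10, chr22:29480218-29491390, plus strand). Counts were 30, 12 and 8 in the EtOH libraries and 27, 19 and 47 in the Tet libraries. These correspond to 0.837, 0.433 and 0.264 CPM against 0.957, 0.536 and 1.18 CPM, and the groups overlapped. The log2FC was 0.79 (SE 0.54, edgeR adjusted p = 0.678), and 0.68 (adjusted p = 0.551) without EtOH replicate 2.

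*PRPH*, the peripherin gene (ENSG00000135406.14, chr12:49293252-49298686, plus strand), had 8, 3 and 6 counts in the EtOH libraries and 8, 8 and 10 in the Tet libraries. It was too low to enter the test. In CPM the Tet libraries (0.284, 0.226 and 0.252) lay just above the EtOH libraries (0.223, 0.108 and 0.198), a separation of a few counts. The antisense gene *TROAP-AS1* moreover covers 73.4% of its exon bases, so the counts cannot be ascribed to peripherin mRNA with confidence.

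The make-up of the intermediate filament transcripts was dominated by *INA*. It took 54.3%, 67.6% and 59.0% of the summed TPM of the 5 subunit genes in the EtOH libraries and 67.5%, 76.0% and 61.7% in the Tet libraries. The groups overlapped in this share. *NEFM* took 30.6%, 7.77% and 25.5% in EtOH against 14.2%, 8.09% and 22.8% in Tet, and *NEFL* took the larger share of the neurofilament chains in EtOH replicate 2 (24.5%), Tet replicate 1 (17.97%) and Tet replicate 2 (15.7%). In each of the 6 libraries *NEFH* and *PRPH* each stayed below 0.25%. The summed TPM of the 5 genes was 235 to 292 in the EtOH libraries and 313 to 405 in the Tet libraries.

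*DCX* had the largest difference of the 10 genes among those whose groups did not overlap. Doublecortin (ENSG00000077279.20, chrX:111293779-111412429, minus strand) is a microtubule-binding protein of young, migrating neurons. It had 502, 246 and 510.0 CPM in the EtOH libraries and 1095, 845 and 1082 CPM in the Tet libraries. Even the lowest Tet library was far above the highest EtOH library, and replicate 2 was the lowest in each group. The means were 419 ± 151 and 1008 ± 141 CPM (SD, n = 3 each). The log2FC was 1.26 (SE 0.28, 95% interval 0.63 to 1.90), with an unadjusted p of 0.0016 and an edgeR adjusted p of 0.134. Without EtOH replicate 2 it was 0.998 (SE 0.15, edgeR adjusted p = 0.0155).

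*MAP1B* was the most abundant of the 10 genes. Its product, the microtubule-associated protein of extending axons, is encoded by ENSG00000131711.15 (chr5:72107234-72209565, plus strand). The EtOH libraries had 2249.9, 1994 and 2186 CPM and the Tet libraries 3173, 3312 and 3639 CPM. Each Tet library exceeded each EtOH library, and means were 2143 ± 133 and 3374 ± 239 CPM (SD, n = 3 each). The log2FC was 0.65 (SE 0.15, 95% interval 0.32 to 0.99), with an unadjusted p of 0.00191 and an edgeR adjusted p of 0.142. It was 0.61 (SE 0.13) without EtOH replicate 2, when it passed the threshold (edgeR adjusted p = 0.0470).

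*MAP2*, whose protein stabilises dendritic microtubules, had a difference between the groups of similar size at a lower level (ENSG00000078018.20, chr2:209424058-209734118, plus strand). Its deviations from the group mean ran against those of *MAP1B* (Pearson correlation -0.86). *MAP2* had 241, 261 and 246 CPM in the EtOH libraries and 382, 398 and 352 CPM in the Tet libraries. No Tet library reached down to the EtOH range. Means were 249 ± 10.4 and 378 ± 23.3 CPM (SD, n = 3 each), with a log2FC of 0.60 (SE 0.14, 95% interval 0.29 to 0.91). The unadjusted p was 0.00186 and the edgeR adjusted p was 0.142. Leaving out EtOH replicate 2 gave 0.64 (SE 0.13, edgeR adjusted p = 0.0352). None of the exon bases of *MAP2*, *MAP1B* or *DCX* is shared with another gene.

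*MAPT* and *STMN2*, both prominent in mature neurons, were barely detected. *MAPT* (ENSG00000186868.17, chr17:45894527-46028334, plus strand), which encodes tau, had 40, 7 and 21 counts in the EtOH libraries and 32, 14 and 119 in the Tet libraries. Tet replicate 3 stood far above the rest and the groups overlapped, so that the log2FC of 1.12 (SE 0.75, edgeR adjusted p = 0.671) had a 95% interval from -0.59 to 2.83. It was 0.74 (edgeR adjusted p = 0.597) without EtOH replicate 2 and 0.12 without Tet replicate 3. *STMN2* (ENSG00000104435.14, chr8:79611117-79666158, plus strand) had 5, 6 and 8 counts in the EtOH libraries and 5, 11 and 6 in the Tet libraries, and was not tested. Its groups overlapped.

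Within the microtubule proteins the balance between *MAP1B* and *DCX* differed between the labels. *MAP1B* took 72.0%, 77.5% and 71.1% of the summed TPM of the 5 genes in the EtOH libraries and 64.4%, 69.3% and 68.1% in the Tet libraries. *DCX* took 19.8%, 11.7% and 20.4% in EtOH and 27.3%, 21.7% and 24.9% in Tet. Each Tet library lay below each EtOH library for the *MAP1B* share and above it for the *DCX* share, although the steps between the groups, from 71.1% to 69.3% and from 20.4% to 21.7%, were smaller than the SD within either group. The *MAP2* share overlapped, between 7.003% and 10.8%. Summed TPM of the 5 genes was 607 to 672 in EtOH and 1037 to 1108 in Tet.

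**Figure D2:**
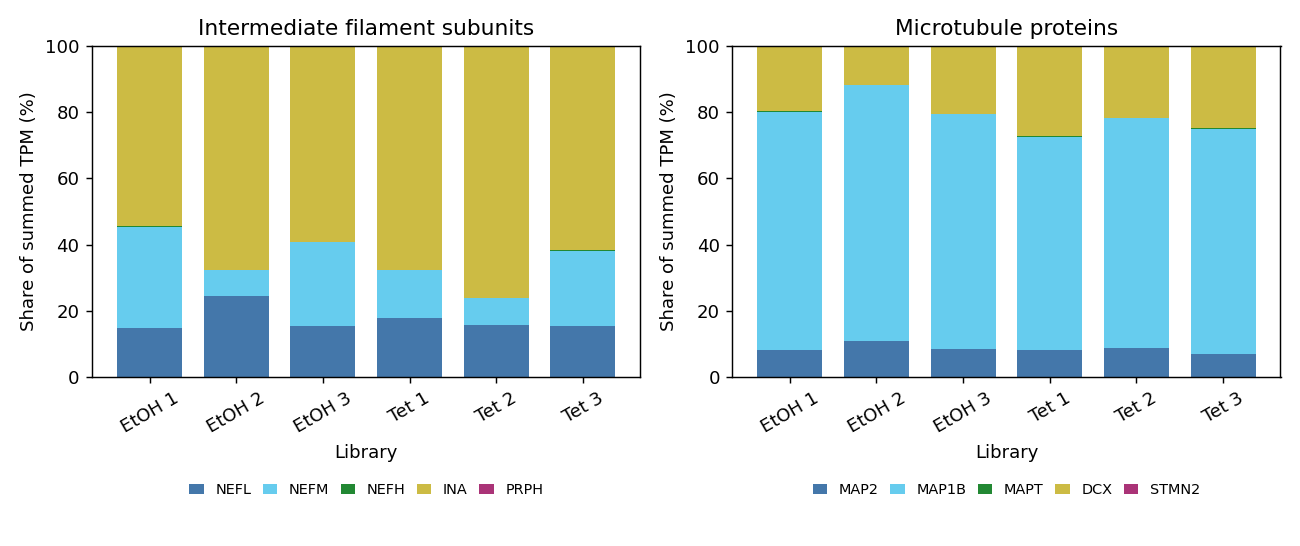
Share of each gene in the summed TPM (%) of the 5 intermediate filament subunit genes (left) and of the 5 microtubule protein genes (right), 1 stacked bar per library. *INA* fills between 54.3% and 76.0% of the left bars, and *DCX* fills between 11.7% and 27.3% of the right bars.

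Across the 10 genes, 8 were tested and 0 passed an adjusted p of 0.05 in edgeR's quasi-likelihood test, against 0.236% of all genes tested. At an unadjusted p under 0.05 there were 4, *INA*, *MAP2*, *MAP1B* and *DCX*, all higher in Tet, where 5.83% of all genes tested were higher and 4.94% lower by that measure (10.8% in either direction). The same 4 of the 8 had all Tet libraries above all EtOH libraries, beside 9.2% of all genes tested (8.28% had them below, 17.5% either) and 10.1% of those with a mean of at least 100 CPM. The log2FC was above 0 for 8 of 8 genes, against 49.3% of all genes tested, and the median was 0.70 against -0.01. These counts describe 8 genes of shared function that were measured in the same libraries, and the genes are not replicates. The genes were also chosen with earlier results of these data known, so the comparison with all genes is a description only. In bulk RNA, more cells of a neuronal state and more RNA per cell cannot be told apart.

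The count of genes past the threshold depended on EtOH replicate 2 and on the test. With 1 other library left out, Tet replicate 2 included, 0 of the 8 passed. Without EtOH replicate 2, 5 of the 8 passed (*NEFL*, *INA*, *MAP2*, *MAP1B* and *DCX*), when 1.51% of all genes tested were called higher in Tet. DESeq2 on all genes with a count called *MAP1B* (adjusted p = 0.0330) and *DCX* (adjusted p = 0.0025) higher, beside 1.18% of all genes. On the genes that edgeR tested, an alternative added after the data were seen, it also called *MAP2* (adjusted p = 0.0262), where 1.67% of genes were called higher. With the replicate number as a block, edgeR called *INA*, *MAP2*, *MAP1B* and *DCX*, beside 1.88% of all genes tested.

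**Figure D3:**
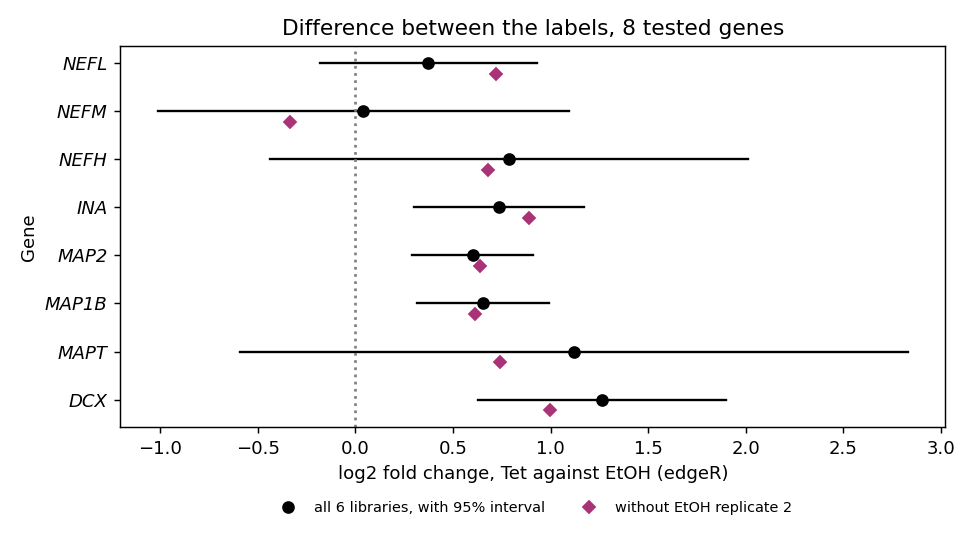
Log2 fold change of Tet against EtOH from edgeR for the 8 tested genes, as circles with 95% intervals over all 6 libraries and as diamonds without EtOH replicate 2. The intervals of *INA*, *MAP2*, *MAP1B* and *DCX* lie above 0, and the diamond of *NEFM*, at -0.34, lies on the other side of 0 from its circle, at 0.04.

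Replicates of one group differed from each other in a way that ran through several of these genes. Deviations from the group mean in log2 CPM were 0.56 for *NEFL* in EtOH replicate 2, but -1.13 for *NEFM*, -1.06 for *MAPT* and -0.70 for *DCX*. In Tet replicate 2 they were -0.63 for *NEFM* and -1.38 for *MAPT*, and in Tet replicate 3 they were 0.64 and 1.37. Thus *NEFM* and *MAPT* were low in replicate 2 of both groups and *NEFM* went against its partner *NEFL*. As a description over 6 libraries, the deviations of *NEFM* had a Pearson correlation of -0.92 with those of *NEFL* and -0.94 with *INA*, but 0.93 with *DCX* and 0.92 with *MAPT*. These deviations share libraries, depth and base composition, and with 3 libraries a group they leave few independent points.

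**Figure D4:**
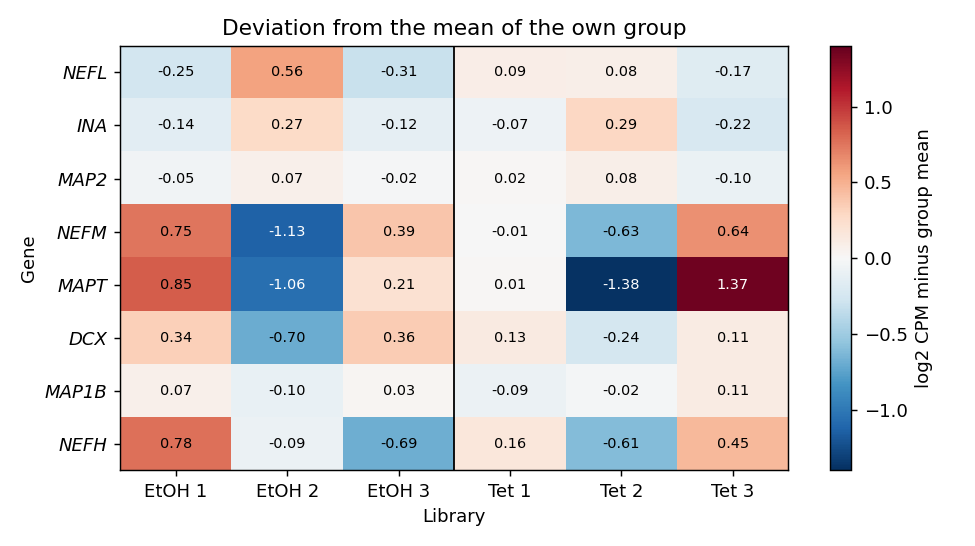
Deviation of each of the 8 tested genes from the mean of its own group in log2 CPM, by library, with blue below and red above the mean. *NEFM*, *MAPT* and *DCX* are below their group mean in EtOH replicate 2 and in Tet replicate 2, where *NEFL*, *INA* and *MAP2* are above it.

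Base composition of the exons was set beside these deviations, and its part in them was not tested. In the 5611 tested genes richest in G and C, the median deviation from the mean of all 6 libraries was -0.34 log2 units in EtOH replicate 2, 0.42 in Tet replicate 3 and 0.24 in EtOH replicate 1. It was 0.24 in EtOH replicate 2 and -0.11 in Tet replicate 3 in the 5611 genes poorest in G and C. *NEFM* (53.0% G and C) and *MAPT* (54.1%) are among the richest, *INA* (50.9%) and *NEFL* (48.8%) just below them, and *MAP2* and *DCX* (both 42.5%) and *MAP1B* (44.6%) lie further down. In EtOH replicate 2 the median deviation from the mean of all 6 libraries was -0.16 in the 5610 genes that hold *INA* and *NEFL*. The deviations of 0.27 for *INA* and 0.56 for *NEFL* in that library are from the EtOH group mean, and are not comparable with it. *DCX*, which is not rich in G and C, was below the EtOH group mean in EtOH replicate 2. Levels also differed between these sets, with a median of 17.5 TPM in the poorest set and 1.496 TPM in the richest set. The richest set holds the scarce genes *NEFH* (57.8%) and *MAPT*, but also the well-expressed *NEFM*, at a mean of 52.6 TPM. *PRPH*, at 63.3%, was too low to be among the tested genes. *STMN2*, at 42.0%, was scarce without being rich in G and C. With a correction for base composition alone, added after the data were seen, 0 of the 8 genes passed the threshold, and *MAP1B* (edgeR adjusted p = 0.0552) and *MAP2* (adjusted p = 0.0582) came nearest.

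Genes whose level followed *MAP2* most closely over the 6 libraries were *BAZ2B* (Pearson r = 0.996 in log2 CPM), *SLAIN1* (0.995), *CNR1* (0.994), *RRAGA* (0.992) and *EBF3* (0.992). *SLAIN1* encodes a protein of growing microtubule ends and *CNR1* a cannabinoid receptor of neurons. Those nearest to *NEFL* were *MPLKIP* (0.998), ENSG00000276057 (0.998), *SHOC2* (0.992), *DNAJC3* (0.992) and *KDM3A* (0.990). With 6 libraries such values are common, since 407 of 10088 genes exceeded 0.9 with *MAP2* and 484 with *NEFL*.

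A further 89 genes of the neuronal cytoskeleton, in 8 lists that were also chosen with earlier results of these data known, set these values in context. Of the 81 tested, 0 passed the adjusted threshold in edgeR, 13 were higher and 1 was lower at an unadjusted p under 0.05, and 66 had a log2FC above 0, with a median of 0.18. Over all genes tested 5.83% were higher and 4.94% lower at that unadjusted p. All Tet libraries lay above all EtOH libraries for 12 of the 81 and below for 1, beside 9.2% and 8.28% of all genes tested. Without EtOH replicate 2, *ELAVL3* (log2FC 1.36), *MAP6* (1.11), *DPYSL2* (0.996) and *TRIM2* (0.82), which was named after its values were seen, passed the adjusted threshold, where 1.51% of all genes tested were called higher. The tubulins, the building blocks of microtubules, had a median of 0.56 over 10 tested genes, 3 of them at an unadjusted p under 0.05. The genes above this median were low, the highest of them, *TUBB*, averaging 4.50 CPM. One of them, *TUBB3*, had 2.09, 1.55 and 7.58 CPM in Tet. The better-expressed *TUBB6*, *TUBA1B* and *TUBG1* had log2FC values of 0.04, 0.25 and -0.27. These 5 were named after their values were seen. The most abundant tubulin gene was *TUBA1A* (51.9 TPM), at 62.6 ± 36.7 CPM in EtOH and 85.9 ± 24.1 CPM in Tet (SD, n = 3 each, log2FC 0.46, edgeR adjusted p = 0.784). *TUBA1C* had the largest change (1.31, SE 0.48, adjusted p = 0.369), with Tet replicate 3 at 4.63 CPM well above the other 5 libraries. Other genes share 10.8% of the exon bases of *TUBA1A* and 22.7% of those of *TUBA1C*, and reads there were counted without strand.

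Among 13 tested genes for other lattice proteins and stathmins, which bind along microtubules or hold free tubulin, the median was 0.21 and 3 were higher at an unadjusted p under 0.05. *STMN1*, the general stathmin of dividing cells and the most abundant at 451 TPM, had 952 ± 189 CPM in EtOH and 1104 ± 322 CPM in Tet (SD, n = 3 each, log2FC 0.21, edgeR adjusted p = 0.832). *STMN3* had the largest value (1.85, SE 0.68, adjusted p = 0.373), with 0.502, 0.866 and 0.364 CPM in EtOH and 0.674, 1.35 and 4.15 CPM in Tet, so the groups overlapped. *MAP6*, which encodes a protein of cold-stable microtubules, and *STMN4*, a neuronal stathmin, were picked out after their values were seen. *MAP6* had 7.64, 2.99 and 7.77 CPM in EtOH and 16.02, 15.5 and 18.1 CPM in Tet (log2FC 1.43, edgeR adjusted p = 0.165), and *STMN4* had a log2FC of 1.65 (adjusted p = 0.171). Neither *MAP6* nor *STMN4* had overlapping groups.

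Enzymes that cut or modify tubulin gave 0 of 15 genes at an unadjusted p under 0.05 and a median of 0.14, with *AGTPBP1*, a tubulin deglutamylase, the most abundant (65.0 TPM). For the end-binding proteins the count was 0 of 9, with a median of 0.23. There *CAMSAP2*, a minus-end protein, led in level (150.0 TPM) and *CLIP2* in change (1.16, SE 0.52, edgeR adjusted p = 0.478). Of 6 genes for collapsin response mediators and growth cones 2 were higher at an unadjusted p under 0.05. These included *DPYSL2*, which promotes tubulin assembly in axons, with 196, 327 and 205 CPM in EtOH and 333, 473 and 388 CPM in Tet (log2FC 0.72, SE 0.23, edgeR adjusted p = 0.297). The difference was larger for *GAP43*, a growth cone protein, at 1.04 (SE 0.39, adjusted p = 0.384), and its groups did not overlap either. Kinases of the cytoskeleton had 3 of 11 at an unadjusted p under 0.05 and a median of 0.23, with values of 0.54 (adjusted p = 0.367) for *MAPK8*, the most abundant, and 0.86 (adjusted p = 0.428) for *MARK4*.

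Other intermediate filament genes and their linkers had the opposite sign in their most changed gene. *NES* encodes nestin, the intermediate filament of neural progenitors. It had 180.1, 260.2 and 223 CPM in the EtOH libraries and 104, 99.5 and 145 CPM in the Tet libraries. All Tet libraries lay below all EtOH libraries, with a log2FC of -0.93 (SE 0.21, edgeR adjusted p = 0.135). The list as a whole had a median of 0.03 over 11 tested genes, and its most abundant gene, the lamin gene *LMNB1* (113 TPM), had a log2FC of 0.03 (adjusted p = 0.986).

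Regulators of neuronal transcripts included 2 of 6 genes at an unadjusted p under 0.05. Both are Hu proteins, which bind and stabilise neuronal mRNAs. *ELAVL3* had 12.9, 17.998 and 14.4 CPM in EtOH and 26.2, 40.8 and 37.7 CPM in Tet (log2FC 1.21, SE 0.22, edgeR adjusted p = 0.0818), the smallest adjusted p of the 81 genes. *ELAVL4*, the most abundant of the list at 159.8 TPM, had a log2FC of 0.57 (SE 0.16, adjusted p = 0.221). The groups overlapped for neither gene. *REST*, the repressor of neuronal genes, had a log2FC of 0.04 (adjusted p = 0.981), and *TARDBP*, whose protein is known to be needed for *STMN2* mRNA, had one of 0.06 (adjusted p = 0.967), both picked out after their values were seen.

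**Figure D5:**
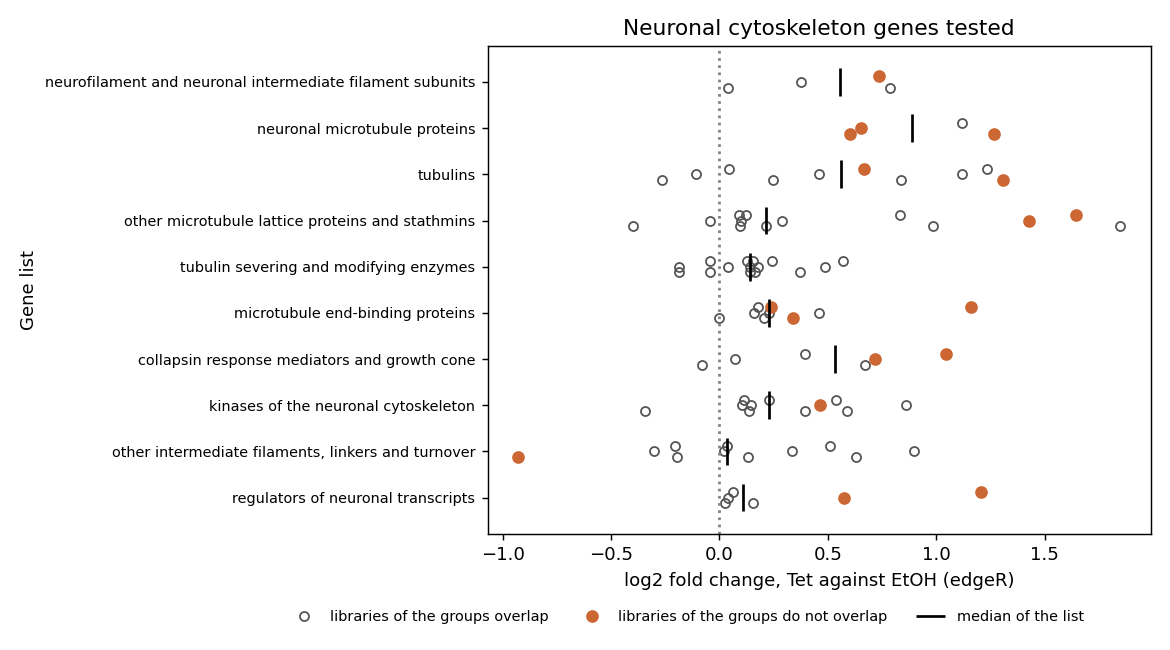
Log2 fold change of Tet against EtOH (edgeR) for each tested gene, by list, with filled points where the libraries of both groups did not overlap and a vertical bar at the median of the list. The microtubule protein genes have a median of 0.89, the intermediate filament subunits 0.56, and *NES*, at -0.93, is the filled point on the left.

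Markers of the cells and of their growth moved beside these genes in part. Of 7 noradrenergic markers, *GATA3* (225 TPM) and *HAND2* were well expressed, while *DBH* and *TH*, the enzymes of noradrenaline synthesis, were at or near 0 (at most 0.453 and 0.0252 CPM). Their summed TPM was 529 to 562 in EtOH and 587 to 671 in Tet, 0 of 5 tested passed the threshold, 3 were higher at an unadjusted p under 0.05 and the other 2 had a log2FC below 0, among them *HAND2* (-0.14, edgeR adjusted p = 0.932), named after its value was seen. *GATA3* had a log2FC of 0.36 (edgeR adjusted p = 0.401), and *PHOX2A* one of 1.398 (SE 0.42, adjusted p = 0.262). Mesenchymal markers summed to 38.4 to 87.9 TPM in EtOH and 30.7 to 55.4 TPM in Tet, with *COL1A2* at 0 in all 6 libraries. Of 6 tested, 0 passed the threshold. The most abundant, *PRRX1*, had a log2FC of -1.02 (SE 0.34, edgeR adjusted p = 0.317) and *SNAI2* one of 1.84 (SE 0.70, adjusted p = 0.389). Without EtOH replicate 2, *SNAI2* was at 2.82 and passed the threshold (edgeR adjusted p = 0.0451). So did the noradrenergic marker *ISL1* (log2FC 1.44, adjusted p = 0.0174), named after its values were seen. In that setting 2 markers were called higher and 1 lower, where 1.51% of all genes tested were called higher. Schwann and glial markers summed to 2.14 to 2.81 TPM in EtOH and 1.17 to 3.76 TPM in Tet, with *S100B* at 0 and 0 of 4 tested past the threshold. Immune markers stayed under 1 TPM in sum, led by *CD14*, and the 1 tested, *PTPRC*, had a log2FC of -0.52 (edgeR adjusted p = 0.809).

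Of 12 proliferation genes, 0 passed the threshold, 2 were lower at an unadjusted p under 0.05 and 11 had a log2FC below 0, with a median of -0.37. Their summed TPM was 973, 1727 and 1000 in the EtOH libraries and 951, 1186 and 846 in the Tet libraries. The sum was highest in EtOH replicate 2, where *NEFL* was also highest and *DCX*, *NEFM* and *MAPT* were lowest. *AURKA*, a mitotic kinase, had 27.6, 25.8 and 24.6 CPM in EtOH and 16.3, 15.96 and 14.9 CPM in Tet (log2FC -0.72, SE 0.16, edgeR adjusted p = 0.131, and 0.0452 without EtOH replicate 2), and *TOP2A*, the most abundant, had -0.26 (adjusted p = 0.768). The part of cell state, proliferation and base composition in the differences of the 10 genes was not tested.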

How the data were processed

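The members and lists were chosen with earlier results of these data known. Per the file headers, the authors assigned uniquely aligned reads to genes on GRCh38 with featureCounts 1.6.4 without strand. Their processing notes name STAR 2.7.1a and featureCounts 1.5.1 instead. The deposited values are estimated counts per gene, and fractional values made up 12.3% to 14.7% of the genes of each library. They were rounded and fitted for all genes in edgeR 4.0.16 (R 4.3.3) with TMM scaling, filterByExpr and the quasi-likelihood F test, and p-values were adjusted by Benjamini-Hochberg over 22443 genes, with a threshold of 0.05. CPM and TPM were computed from these counts, TPM with the exon length in each file. The design had assumed whole counts. DESeq2 1.42.0 and limma 3.58.1 served alternatives. All 10 genes and *MYCN* are named, and per list those past the threshold, the most abundant and the most changed. Some results under this rule are not reported here. Nearest genes to *MAP2* and *NEFL* were the 5 highest Pearson correlations among genes with a mean CPM of at least 5. Counts of 92 spike-in rows were all 0 and left out. Tests were checked on simulated data. Intervals and floors cover counting error or the spread between these libraries only.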

Additional observations from a re-analysis of the deposited data

How the results depend on the processing

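The number of the 10 genes called higher in Tet was 0 in edgeR with all 6 libraries, 2 with DESeq2 on all genes, 3 with DESeq2 on the genes edgeR tested, 1 without a filter, 4 with the replicate block and 4 with the block and a correction for base composition. It ranged from 0 to 5 when 1 library was left out, with 5 only without EtOH replicate 2, and no setting called any of them lower. Of all genes, 1.18% were called higher with DESeq2 on all genes and 1.67% with DESeq2 on the genes edgeR tested. The share was 1.88% with the replicate block and 1.51% without EtOH replicate 2. No such share is given without a filter or with the block and the correction, so counts under these settings stand without a background. For the 89 other cytoskeleton genes the numbers called higher, in the same order, were 0, 3, 3, 2, 3 and 7 (0 to 4 with 1 library left out), and 1 was called lower, *NES*, with both DESeq2 settings, without a filter and with both block settings. Of the markers 2, 2, 2, 2 and 3 were called higher under these 5 alternatives (0 to 2 with 1 library left out), and 1 was called lower with either DESeq2 setting and 3 with either block setting (0 to 1 with 1 library left out). The cause of these changes was not tested.

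With 1 library left out, log2 fold changes ranged from 0.19 to 0.72 for *NEFL*, 0.58 to 0.89 for *INA*, 0.56 to 0.65 for *MAP2*, 0.60 to 0.69 for *MAP1B*, 0.998 to 1.41 for *DCX*, 0.12 to 1.64 for *MAPT* and 0.45 to 1.32 for *NEFH*. *NEFM* ranged from -0.34 to 0.40 and *MYCN* from -0.22 to 0.21, and both changed sign without EtOH replicate 2 (-0.34 and 0.21) and without Tet replicate 3 (-0.34 and 0.07). For the 10 genes, those of *NEFM* were the only 2 sign changes among 142 log2 fold changes under the alternatives, of which 121 kept direction and side of the threshold and 19 passed it newly. Adjusted p-values over the alternatives ran from 0.0024 to 0.465 for *DCX*, 0.0035 to 0.644 for *MAP1B*, 0.0102 to 0.685 for *MAP2* and 0.0085 to 0.742 for *INA*.

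The main test was set without a replicate block. Deviations of same-numbered libraries had correlations of 0.0603, 0.510 and 0.219, which do not settle whether the numbers pair the libraries. With the replicate block, edgeR adjusted p-values were 0.0106 for *INA*, 0.0241 for *MAP2*, 0.0211 for *MAP1B* and 0.0024 for *DCX*. The correction for base composition, DESeq2 on the genes edgeR tested and the block with the correction were added after seeing the data. In simulated libraries of this size and spread, 4% of 200 genes changed by 1 log2 unit were recovered among 21811 genes, against 84.5% of 200 changed by 2 units among 21827, so a call missed at the size seen here does not show an equal level.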
